A study of Danio rerio with 24 samples.

Results

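The Nodal pathway genes described here are 10 protein-coding genes of the 31901 in the deposited tables, taken by symbol and with all 10 found: the ligands ndr1, ndr2 and gdf3, the inhibitors lft1 and lft2, the co-receptor tdgf1, the transducer smad2, the transcription factors foxh1 and eomesa that work with it, and the target mixl1. Their RNA was sequenced from whole zebrafish embryos of wild-type genotype, as total RNA, in 24 libraries that form 6 groups of 4. The tested embryos were kept in 40 µM tetrabromobisphenol A (TBBPA, a brominated flame retardant) and the control embryos in 0 µM, both in 0.1% dimethyl sulfoxide (DMSO), from 0.75 hours post fertilization (hpf) until collection at 2, 3.5 or 4.5 hpf. The TBBPA groups at 2, 3.5 and 4.5 hpf are each set against the DMSO group of the same time. The labels do not say how many embryos went into a library or whether the 4 replicates came from separate clutches, so p-values measure only the spread between these libraries, which may be technical.

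Nodal ligands are secreted TGF-β family proteins that induce mesoderm and endoderm at the margin of the early fish embryo. ndr1 (Squint) and ndr2 (Cyclops) are transcribed from the embryo's own genome and act together with Gdf3 (Vg1), which the mother deposits in the egg. The signal passes through activin receptors that need the co-receptor Tdgf1 (One-eyed pinhead) and reaches the nucleus through Smad2, which binds DNA with partners such as Foxh1 and Eomesa. Its targets include mixl1, an endoderm and mesoderm factor, and lft1 and lft2, secreted inhibitors that block Nodal and so limit its range.

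Levels are given in FPKM (fragments per kilobase of a gene, divided by a size factor of the library). They can be compared between genes as well as between libraries of 1 table. The size factors set the median gene to no change, while 68.1% of genes tested were called at 4.5 hpf. Small differences therefore depend on this scaling. The 16 libraries of 3.5 and 4.5 hpf share 1 table. The 8 libraries of 2 hpf are in another, scaled separately, so levels at 2 hpf are set beside the later ones without a test. Libraries held 10.6 to 20.02 M reads assigned to genes. Of the 7 markers of the early embryo (such as nanog and pou5f3), all 7 averaged at least 1 FPKM in every group, and 0 of 10 markers of later cell types did so in any group. Markers of the enveloping layer, the outer cell sheet, differed between the treatments: their 5 genes summed to 15.7 to 24.4 FPKM in TBBPA libraries at 4.5 hpf, against 217 to 272 FPKM in DMSO libraries. Markers of the yolk syncytial layer, a source of Nodal signals below the embryo, differed too: their 3 genes summed to 18.1 to 25.4 FPKM in TBBPA libraries at 4.5 hpf, against 45.5 to 59.8 FPKM in DMSO libraries. At 3.5 hpf the enveloping layer sums were 6.59 to 10.5 FPKM in TBBPA libraries and 36.3 to 41.7 FPKM in DMSO libraries, while the yolk syncytial layer sums overlapped, at 4.33 to 8.93 FPKM in TBBPA libraries and 6.18 to 7.24 FPKM in DMSO libraries. The part of these layers in the results below was not tested. In whole embryos, fewer cells of a type and less RNA per cell cannot be told apart.

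At 4.5 hpf, after the genome has become active, TBBPA embryos had far less RNA of the Lefty inhibitors, the co-receptor and the target mixl1, and more than 2 times the smad2 and eomesa RNA of DMSO embryos. The ligands had log2 differences between -0.39 and 0.19. Of the 10 genes, 6 were lower in TBBPA than in DMSO embryos (ndr2, lft1, lft2, tdgf1, foxh1 and mixl1). Another 3 were higher (gdf3, smad2 and eomesa), and 1 did not pass the test (ndr1). The test was limma on log2(FPKM + 1) with Benjamini-Hochberg adjustment over all 12324 genes tested and a threshold of 0.05. Folds, ratios and percentages of means given below are of mean FPKM, while log2 differences, SE and p belong to log2(FPKM + 1). The 2 therefore differ for weakly expressed genes. Over all genes tested, 68.1% were called in this comparison, 35.0% lower and 33.1% higher in TBBPA, and the count of the 10 genes is read against that share. The 10 genes were chosen with earlier results of these data known, so their counts here and below are a description. The median log2 difference was -0.42 over the 10 Nodal pathway genes and -0.02 over all genes tested. For 8 of the 10 genes, all but ndr1 and ndr2, no TBBPA library overlapped any DMSO library, against 63.4% of all genes tested.

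**Figure D1:**
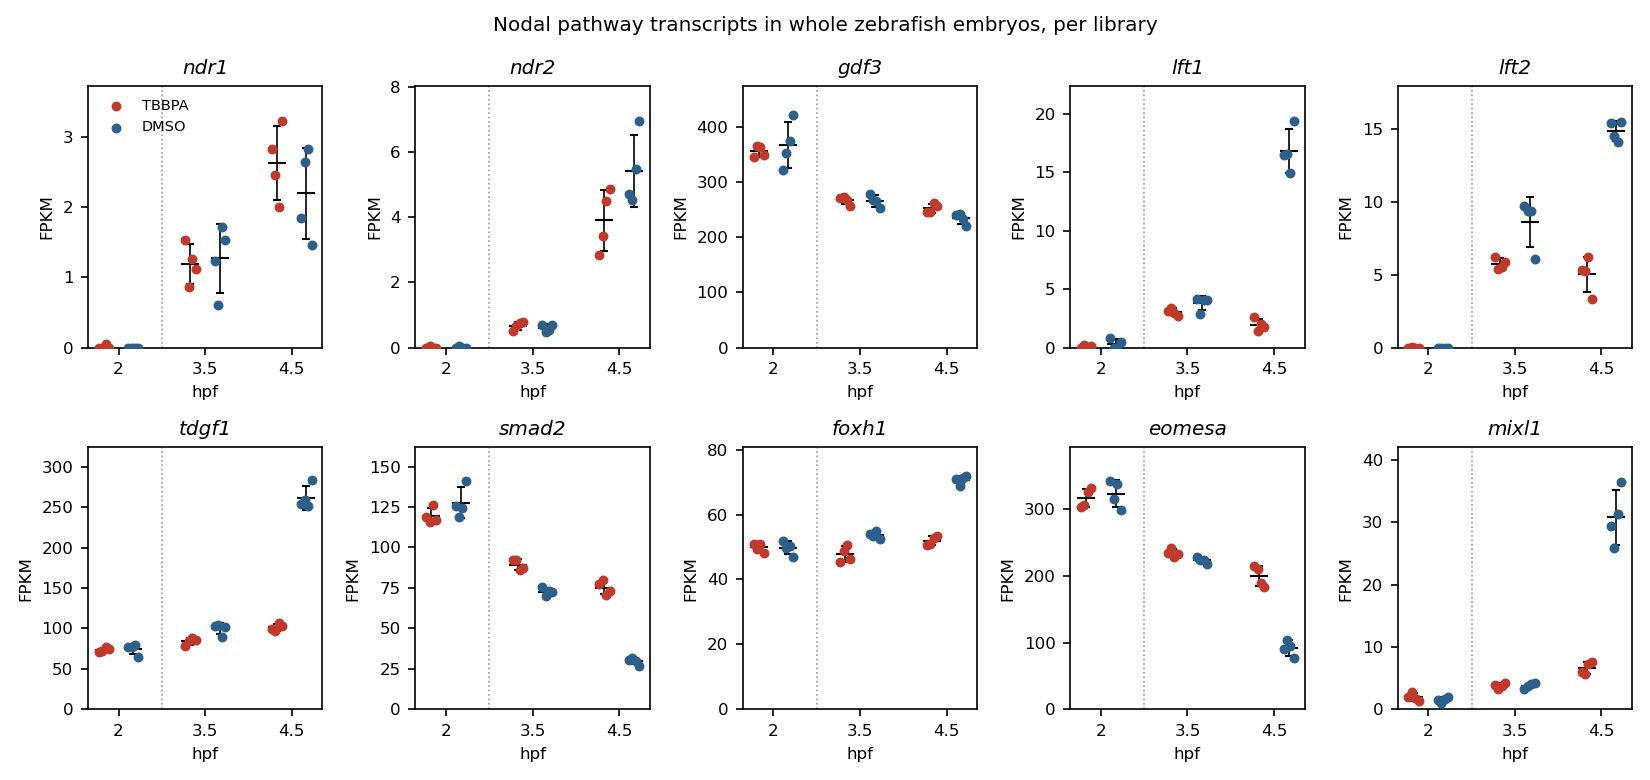
FPKM (vertical axis, from 0, own scale per gene) of each of the 10 Nodal pathway genes in every library at 2, 3.5 and 4.5 hpf, with TBBPA libraries left of DMSO libraries at each time and bars for the mean and SD of 4 libraries (the dotted line parts the separately scaled tables). At 4.5 hpf the groups stand apart for 8 genes and overlap for ndr1 and ndr2, as in the values given in the text, while at 2 hpf ndr1, ndr2, lft1 and lft2 lie at or near 0.

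Of the ligands, ndr1 (ENSDARG00000057096) was weakly expressed at 4.5 hpf, with 2.82, 2.46, 2.00 and 3.23 FPKM in TBBPA libraries, against 1.85, 2.64, 2.84 and 1.46 FPKM in DMSO libraries. The libraries of the 2 treatments interleaved, and the log2 difference of 0.19 had a 95% confidence interval of -0.16 to 0.55 (limma adjusted p = 0.303), which does not show that the levels were equal. These values rest on few reads, 34 to 85 per library at 4.5 hpf.

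The second ligand, ndr2 (ENSDARG00000101279), had 2.85, 3.41, 4.50 and 4.87 FPKM in TBBPA libraries at 4.5 hpf, against 4.72, 4.54, 5.49 and 6.96 FPKM in DMSO libraries. Its highest TBBPA library lay above its 2 lowest DMSO libraries. The mean in TBBPA was 72.0% of that in DMSO (log2 difference -0.39, SE 0.16, limma adjusted p = 0.0450), a call close to the threshold. It was lost without DMSO replicate 3 (adjusted p = 0.0856), DMSO replicate 4 (0.124), TBBPA replicate 1 (0.122) or TBBPA replicate 2 (0.105), and the log2 difference became -0.25 (adjusted p = 0.173) when each library was scaled to 1 total (TPM). The gene overlaps lrrc20 on the same strand over 3958 bases, which had 1.68 ± 0.20 FPKM in TBBPA and 1.93 ± 0.43 FPKM in DMSO libraries (SD, n = 4 each), so that reads of the shared stretch are uncertain.

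The maternal ligand gdf3 (ENSDARG00000037995) had the highest mean of the 10 genes in 5 of the 6 groups, passed by tdgf1 in DMSO embryos of 4.5 hpf. At 4.5 hpf it had 246, 245, 262 and 256 FPKM in TBBPA libraries, against 241, 242, 233 and 221 FPKM in DMSO libraries. All TBBPA libraries lay above all DMSO libraries, by a small margin. The log2 difference was 0.11 (SE 0.036, limma adjusted p = 0.0221) and lost the threshold without TBBPA replicate 3 (adjusted p = 0.0630) or TBBPA replicate 4 (0.0544), while TPM scaling gave 0.28.

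Of the inhibitors, lft1 (ENSDARG00000019920) had 2.63, 1.42, 2.02 and 1.79 FPKM in TBBPA libraries at 4.5 hpf, against 16.5, 16.6, 14.9 and 19.4 FPKM in DMSO libraries. The highest TBBPA library was far below the lowest DMSO library. Its mean was 8.57-fold lower in TBBPA, and the log2 difference of -2.60 (SE 0.12, limma adjusted p = 1.09e-07) was the largest of the 10 genes. These values rest on 29 to 67 reads per TBBPA library and 239 to 434 reads per DMSO library.

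The second inhibitor, lft2 (ENSDARG00000044059), had 5.34, 5.23, 6.20 and 3.35 FPKM in TBBPA libraries at 4.5 hpf, against 15.4, 14.5, 14.1 and 15.5 FPKM in DMSO libraries. The groups did not overlap, and TBBPA replicate 4 was the lowest. Its mean was 2.96-fold lower in TBBPA (log2 difference -1.42, SE 0.13, limma adjusted p = 6.14e-06).

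The co-receptor tdgf1 (ENSDARG00000035095), without which zebrafish embryos do not respond to Nodal, had 99.5, 96.1, 106 and 103 FPKM in TBBPA libraries at 4.5 hpf, against 254, 258, 252 and 284 FPKM in DMSO libraries. Both groups were tight and far apart. Its mean in TBBPA was 38.7% of that in DMSO (log2 difference -1.36, SE 0.044, limma adjusted p = 3.28e-08).

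The transducer smad2 (ENSDARG00000006389) went the other way, with 77.6, 79.8, 70.4 and 73.0 FPKM in TBBPA libraries at 4.5 hpf, against 30.5, 31.5, 30.0 and 26.7 FPKM in DMSO libraries. Every TBBPA library had more than 2 times the level of any DMSO library. The ratio of means was 2.53 (log2 difference 1.31, SE 0.057, limma adjusted p = 7.19e-08).

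Of the DNA-binding partners of Smad2, eomesa (ENSDARG00000006640), a maternally supplied T-box factor, had 216, 211, 189 and 184 FPKM in TBBPA libraries at 4.5 hpf, against 91.0, 104, 95.5 and 76.7 FPKM in DMSO libraries. The groups were well separated, with a ratio of means of 2.18 (log2 difference 1.12, SE 0.087, limma adjusted p = 1.70e-06). The forkhead factor foxh1 (ENSDARG00000055630) moved in the opposite direction and less, with 50.6, 50.8, 52.9 and 53.5 FPKM in TBBPA libraries, against 71.0, 68.9, 71.2 and 71.9 FPKM in DMSO libraries. Its groups did not overlap, and the mean in TBBPA was 73.4% of that in DMSO (log2 difference -0.44, SE 0.032, limma adjusted p = 1.10e-06). Over the alternatives of processing, the foxh1 difference lay between -0.45 and -0.27.

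The target gene mixl1 (ENSDARG00000069252) had 5.92, 5.71, 7.33 and 7.63 FPKM in TBBPA libraries at 4.5 hpf, against 29.4, 26.0, 31.4 and 36.5 FPKM in DMSO libraries. The highest TBBPA library was far below the lowest DMSO library, and the mean was 4.64-fold lower in TBBPA (log2 difference -2.06, SE 0.11, limma adjusted p = 2.12e-07). It overlaps lin9 on the opposite strand over 86 bases, a gene that had 39.1 ± 1.15 FPKM in TBBPA and 33.1 ± 1.71 FPKM in DMSO libraries (SD, n = 4 each).

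**Figure D2:**
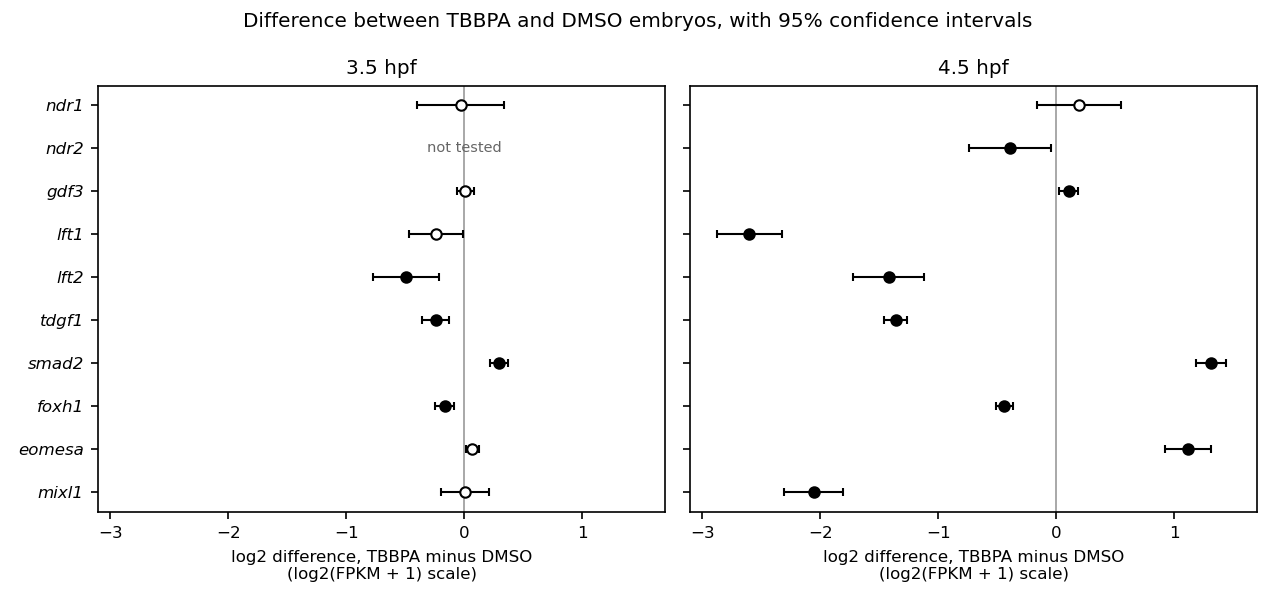
Log2 difference between TBBPA and DMSO on the log2(FPKM + 1) scale for each gene at 3.5 and 4.5 hpf, with bars for the 95% confidence interval and filled points for limma adjusted p under 0.05. At 4.5 hpf lft1 lies lowest at -2.60 and smad2 highest at 1.31, while at 3.5 hpf the tested genes lie between -0.49 and 0.29.

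At 3.5 hpf, around the onset of zygotic transcription, the differences were smaller and concerned the co-receptor, the transducer, foxh1 and lft2. Of the 9 genes tested, smad2 was higher in TBBPA than in DMSO embryos, and lft2, tdgf1 and foxh1 were lower. ndr1, gdf3, lft1, eomesa and mixl1 did not pass the test. ndr2 stayed below the filter of 1 FPKM in at least 4 libraries. Over all 11859 genes tested, 12.0% were called at 3.5 hpf, 5.34% lower and 6.67% higher, and the median log2 difference was 0.01, against -0.03 over the 9 Nodal pathway genes. Without any 1 library, 925 to 1510 genes were called over all genes, against 1424 with all libraries, and 3 or 4 of the 9.

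smad2 had 92.2, 92.3, 86.0 and 87.0 FPKM in TBBPA libraries at 3.5 hpf, against 75.3, 69.8, 73.1 and 72.7 FPKM in DMSO libraries. The groups did not overlap (log2 difference 0.29, SE 0.034, limma adjusted p = 3.88e-04). tdgf1 had 78.0, 84.4, 88.3 and 85.9 FPKM in TBBPA libraries, against 103, 105, 89.8 and 102 FPKM in DMSO libraries. All TBBPA libraries were below all DMSO libraries, with DMSO replicate 3 the closest (log2 difference -0.24, SE 0.053, limma adjusted p = 0.0141). foxh1 had 45.5, 48.7, 50.8 and 46.4 FPKM in TBBPA libraries, against 54.1, 53.5, 55.0 and 52.6 FPKM in DMSO libraries. Its groups did not overlap either (log2 difference -0.17, SE 0.037, limma adjusted p = 0.0154). With eomesa, which did not pass the test, 4 of the 10 genes were without overlap between the treatments, against 17.2% of all genes tested.

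Both Lefty genes had lower mean levels in TBBPA at 3.5 hpf, and 1 of them passed the test. lft2 had 6.24, 5.39, 5.54 and 5.91 FPKM in TBBPA libraries, against 9.73, 9.39, 9.37 and 6.06 FPKM in DMSO libraries. DMSO replicate 4 lay within the TBBPA range, apart from the other DMSO libraries. The log2 difference was -0.49 (SE 0.13, limma adjusted p = 0.0311). This call was lost without DMSO replicate 1 (adjusted p = 0.0724), 2 (0.0875) or 3 (0.0838) and without TBBPA replicate 1 (0.0526), 2 (0.0863) or 3 (0.0700), while without DMSO replicate 4 the difference was -0.63 with an adjusted p of 7.33e-04. lft1 had 3.12, 3.43, 2.94 and 2.72 FPKM in TBBPA libraries, against 4.12, 2.91, 4.11 and 4.07 FPKM in DMSO libraries. DMSO replicate 2 lay within the TBBPA range, and the log2 difference of -0.24 did not pass (limma adjusted p = 0.184, and 0.0383 without that library, where the difference was -0.33). Without 1 other library the adjusted p of lft1 reached up to 0.336.

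The remaining genes did not pass the test at 3.5 hpf or, for ndr2, were not tested. mixl1 had 3.87, 3.28, 3.78 and 4.15 FPKM in TBBPA libraries, against 3.16, 3.67, 4.05 and 4.197 FPKM in DMSO libraries. These values interleaved, with a log2 difference of 0.00 and a 95% confidence interval of -0.20 to 0.21. For gdf3 the means were 267 ± 7.01 FPKM in TBBPA and 266 ± 10.6 FPKM in DMSO libraries (SD, n = 4 each), with an interval of -0.06 to 0.08. For eomesa, 234, 243, 229 and 233 FPKM in TBBPA libraries stood against 228, 224, 224 and 219 FPKM in DMSO libraries. All TBBPA libraries were higher, but the log2 difference of 0.07 did not pass (limma adjusted p = 0.0905). Over the alternatives of processing its adjusted p ran from 0.0337, with TPM scaling, to 0.629. ndr1 and ndr2 were at the low end of the measurable range: ndr1 had 1.53, 0.856, 1.26 and 1.12 FPKM in TBBPA libraries, against 1.23, 0.601, 1.72 and 1.53 FPKM in DMSO libraries. ndr2 had 0.506, 0.659, 0.754 and 0.781 FPKM in TBBPA libraries, against 0.685, 0.488, 0.537 and 0.708 FPKM in DMSO libraries, from 23 to 53 reads per library. Both ligands overlapped between the treatments. For ndr1 the 95% confidence interval of the log2 difference was -0.40 to 0.34, which does not show equal levels, and ndr2 was not tested.

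At 2 hpf, in the cleavage period, the genes fell into a maternal and a zygotic set. gdf3, eomesa, smad2, tdgf1 and foxh1 were abundant in the egg's RNA pool, mixl1 was detected at a low level, and ndr1, ndr2, lft1 and lft2 were nearly absent. Of the 6 genes that reached the filter, 0 passed the test, as did 0% of all 11061 genes tested by limma. At an unadjusted p under 0.05 there were 795 genes, 0 of them among the 6, and limma voom on the recovered reads also called 0 genes.

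The maternal genes had overlapping levels in the 2 treatments at 2 hpf. gdf3 averaged 356 ± 9.99 FPKM in TBBPA and 367 ± 41.6 FPKM in DMSO libraries (SD, n = 4 each), with DMSO replicate 4 the highest at 421 FPKM. eomesa averaged 317 ± 13.9 FPKM in TBBPA and 324 ± 20.03 FPKM in DMSO libraries, and smad2 119.6 ± 4.86 FPKM in TBBPA and 128 ± 9.63 FPKM in DMSO libraries. tdgf1 averaged 73.3 ± 2.73 FPKM in TBBPA and 74.3 ± 6.46 FPKM in DMSO libraries, and foxh1 49.9 ± 1.33 FPKM in TBBPA and 49.8 ± 2.08 FPKM in DMSO libraries. The 95% confidence intervals of these 5 log2 differences lay between -0.23 and 0.14. mixl1 had 2.02, 2.83, 1.71 and 1.24 FPKM in TBBPA libraries, against 1.51, 0.907, 1.63 and 1.92 FPKM in DMSO libraries. Its wider interval ran from -0.20 to 0.66. The overlapping gene lin9 had 53.3 ± 0.737 FPKM in TBBPA and 55.0 ± 4.53 FPKM in DMSO libraries at 2 hpf. Reads of the shared stretch are uncertain, so the low mixl1 level may hold reads of lin9, which was not tested.

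The zygotic genes were at or below a few reads at 2 hpf. ndr1 had 1 read in all TBBPA libraries together and 0 in DMSO libraries, where 3 reads in a library, the limit that a count of 0 allows, would be 0.138 to 0.145 FPKM. ndr2 had 3 reads in TBBPA libraries and 2 in DMSO libraries. lft2 had 1 read in TBBPA libraries and 0 in DMSO libraries. lft1 was scattered, with 0, 4, 0 and 3 reads in TBBPA libraries, against 15, 0, 0 and 9 reads in DMSO libraries. These 4 genes stayed below the filter, so a treatment difference was not tested for them.

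Between 3.5 and 4.5 hpf, DMSO embryos changed all 10 genes: 7 rose (ndr1, ndr2, lft1, lft2, tdgf1, foxh1 and mixl1) and 3 fell (gdf3, smad2 and eomesa) by limma, against 70.1% of all 12354 genes tested (35.8% higher and 34.3% lower). In TBBPA embryos over the same hour, 4 rose (ndr1, ndr2, tdgf1 and mixl1), 3 fell (lft1, smad2 and eomesa), and gdf3, lft2 and foxh1 did not pass, against 14.8% of all 11877 genes tested (6.15% higher and 8.60% lower). For lft1 the called changes were in opposite directions. For 7 of the 10 genes in TBBPA and 9 in DMSO embryos no library of 4.5 hpf overlapped one of 3.5 hpf, against 21.3% of all genes tested in TBBPA and 64.8% in DMSO embryos. The median log2 change over the 10 genes was 0.02 in TBBPA and 0.62 in DMSO embryos.

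**Figure D3:**
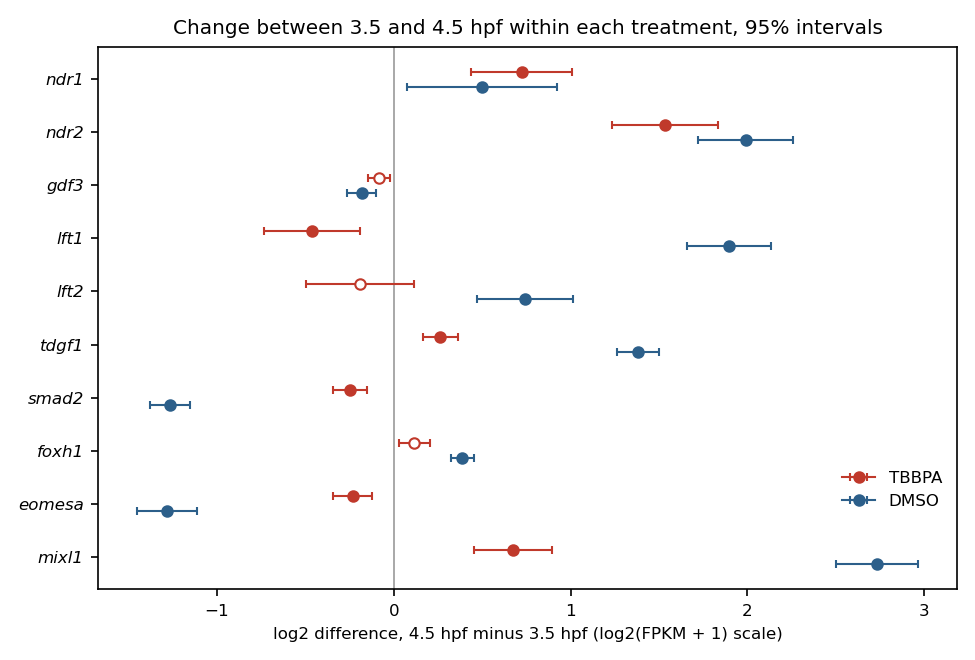
Log2 change between 3.5 and 4.5 hpf on the log2(FPKM + 1) scale for each gene in TBBPA and in DMSO embryos, with bars for the 95% confidence interval and filled points for limma adjusted p under 0.05. In TBBPA embryos all genes but ndr2 lie between -0.46 and 0.72, whereas in DMSO embryos they reach from -1.28 for eomesa to 2.73 for mixl1.

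Both Nodal ligands rose with time in each treatment. Their folds are ratios of mean FPKM and exceed the tested log2(FPKM + 1) changes, which the added 1 makes smaller at such low levels. ndr2 was 5.79-fold higher at 4.5 than at 3.5 hpf in TBBPA embryos (log2 change 1.53, SE 0.14, limma adjusted p = 4.74e-04) and 8.98-fold higher in DMSO embryos (1.99, SE 0.12, adjusted p = 2.01e-07). ndr1 was 2.20-fold higher in TBBPA embryos (log2 change 0.72, SE 0.13, limma adjusted p = 0.00501) and 1.73-fold higher in DMSO embryos (0.50, SE 0.19, adjusted p = 0.0374). Since every 3.5 hpf library had less than 1 FPKM of ndr2, the gene reached the filter of both tests only through the 4.5 hpf libraries, so the counts above include a gene that had to differ. With no filter on low values its adjusted p was 0.00440 in TBBPA and 3.82e-06 in DMSO embryos. The ndr1 call in DMSO was lost without replicate 1 (adjusted p = 0.0659) or 2 (0.0965) at 3.5 hpf and without replicate 2 (0.0911) or 3 (0.101) at 4.5 hpf.

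Neither Lefty gene was called higher over time in TBBPA embryos, unlike ndr1 and ndr2. lft1 fell to 0.644 times its 3.5 hpf mean in TBBPA embryos (log2 change -0.46, SE 0.12, limma adjusted p = 0.0301), whereas it rose 4.43-fold in DMSO embryos (1.90, SE 0.11, adjusted p = 1.16e-07). The fall in TBBPA was lost without replicate 1 (adjusted p = 0.0744), 2 (0.0864) or 3 (0.0540) at 3.5 hpf and without replicate 2 (0.0584), 3 (0.0623) or 4 (0.0805) at 4.5 hpf, 6 of the 8 libraries. lft2 had a ratio of means of 0.872 in TBBPA embryos (log2 change -0.19, 95% confidence interval -0.49 to 0.12, limma adjusted p = 0.399), whereas it rose 1.72-fold in DMSO embryos (0.74, SE 0.12, adjusted p = 2.95e-04).

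The target and the co-receptor rose in both treatments. mixl1 rose 1.76-fold in TBBPA embryos (log2 change 0.67, SE 0.10, limma adjusted p = 0.00215) and 8.17-fold in DMSO embryos (2.73, SE 0.10, adjusted p = 1.08e-08). tdgf1 rose 1.20-fold in TBBPA embryos (log2 change 0.26, SE 0.043, limma adjusted p = 0.00349) and 2.62-fold in DMSO embryos (1.38, SE 0.054, adjusted p = 1.19e-08). The maternal transcripts of smad2 and eomesa fell in both treatments. smad2 fell to 0.841 times its 3.5 hpf mean in TBBPA embryos (log2 change -0.25, limma adjusted p = 0.00484) and to 0.408 times in DMSO embryos (-1.27, adjusted p = 1.25e-08). eomesa fell to 0.852 times in TBBPA embryos (log2 change -0.23, limma adjusted p = 0.0118) and to 0.411 times in DMSO embryos (-1.28, adjusted p = 1.56e-07). foxh1 rose 1.31-fold in DMSO embryos (log2 change 0.39, limma adjusted p = 7.42e-07), and its ratio of 1.09 in TBBPA embryos (log2 change 0.12) did not pass (adjusted p = 0.0786). gdf3 fell to 0.881 times in DMSO embryos (log2 change -0.18, limma adjusted p = 0.00134), and its ratio of 0.943 in TBBPA embryos did not pass (log2 change -0.08, adjusted p = 0.0830). The foxh1 change in TBBPA passed without replicate 3 at 3.5 hpf (adjusted p = 0.0383), with voom on the recovered reads (0.0424) and with all 16 libraries in 1 fit (0.0252). That of gdf3 passed without replicate 4 at 3.5 hpf (adjusted p = 0.0492) and with TPM scaling (0.0398). Without 1 other library the adjusted p reached up to 0.189 for foxh1 and 0.197 for gdf3. Over all genes, 1152 and 1131 were called in TBBPA without replicates 1 and 2 at 3.5 hpf, and 1118 and 1107 without replicates 3 and 4 at 4.5 hpf, against 1753 with all libraries. The highest count without 1 library was 1699.

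The difference between these time courses was tested as an interaction over the 16 libraries, that is, the TBBPA effect at 4.5 hpf minus that at 3.5 hpf. It passed for 7 of the 10 genes by limma, 5 lower and 2 higher, against 52.8% of all 12780 genes tested (26.6% lower and 26.3% higher). The log2 values were -2.36 for lft1 (SE 0.17, adjusted p = 2.34e-08), -2.06 for mixl1 (SE 0.15, adjusted p = 2.91e-08) and -1.12 for tdgf1 (SE 0.074, adjusted p = 1.36e-08). They were -0.93 for lft2 (SE 0.20, adjusted p = 8.14e-04), -0.27 for foxh1 (SE 0.047, adjusted p = 1.46e-04), 1.02 for smad2 (SE 0.069, adjusted p = 1.57e-08) and 1.05 for eomesa (SE 0.098, adjusted p = 3.03e-07). The inhibitors, the co-receptor, the target and foxh1 thus rose less, or did not rise, in TBBPA embryos, and smad2 and eomesa fell less. The foxh1 value became -0.11 (adjusted p = 0.0544) with TPM scaling.

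For the 3 ligands the interaction did not pass. ndr1 had 0.23 with a 95% confidence interval of -0.29 to 0.75 (limma adjusted p = 0.467). ndr2 had -0.46 with an interval of -0.86 to -0.06 (adjusted p = 0.0531). Its adjusted p was 0.0431 without TBBPA replicate 1 at 3.5 hpf, 0.0441 and 0.0347 without DMSO replicates 1 and 2 at 4.5 hpf, and 0.0367 and 0.0203 without TBBPA replicates 3 and 4 at 4.5 hpf. Over all alternatives it ran from 0.0167 to 0.190. gdf3 had 0.10 with an interval of -0.00499 to 0.20 (adjusted p = 0.102, and 0.0406 without DMSO replicate 4 at 3.5 hpf), and 0.26 with TPM scaling (adjusted p = 2.29e-04). Without 1 other library its adjusted p reached up to 0.210.

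Because ndr1 and ndr2 were called higher over time in TBBPA embryos and lft1 and lft2 were not, the summed levels of each pair were compared. This is a description with no test, of sums chosen after those calls were seen. At 4.5 hpf lft1 and lft2 together had 1.41, 1.13, 1.26 and 0.635 times the FPKM of ndr1 and ndr2 together in TBBPA libraries, against 4.86, 4.32, 3.49 and 4.14 times in DMSO libraries. At 3.5 hpf this ratio was 4.59, 5.82, 4.21 and 4.53 in TBBPA libraries, against 7.22, 11.3, 5.96 and 4.52 in DMSO libraries. The ratio was lower in every TBBPA library at 4.5 hpf than in any other library of the table, and at 3.5 hpf the treatments overlapped. From 3.5 to 4.5 hpf the mean ratio fell from 4.79 to 1.11 in TBBPA libraries. It also fell in DMSO libraries, from 7.25 to 4.20, where the 2 times overlapped. The 11.3 of DMSO replicate 2 came with the lowest ndr1 level of its group, 0.601 FPKM.

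**Figure D4:**
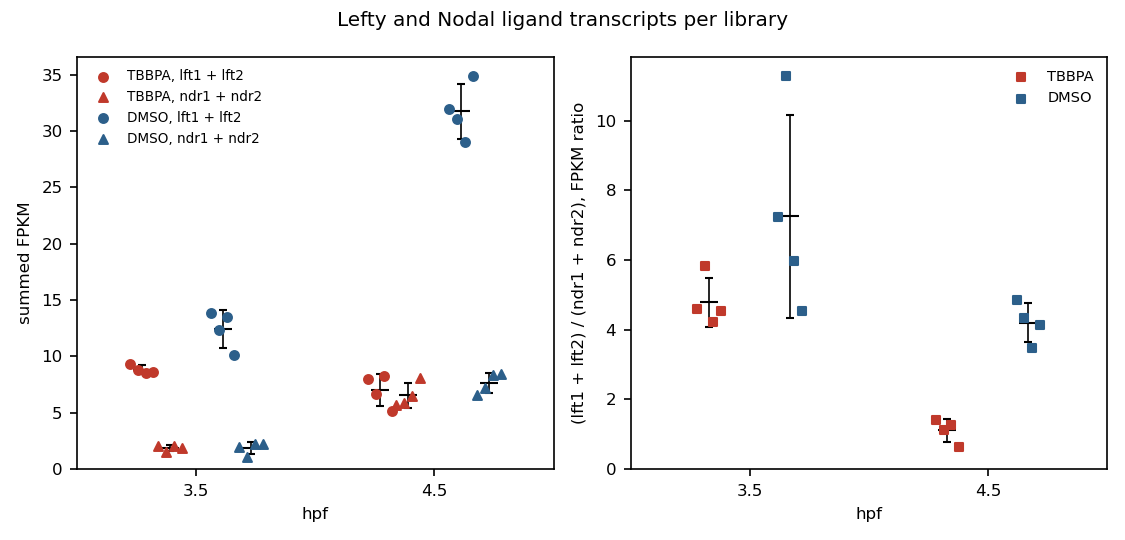
Left, summed FPKM of lft1 and lft2 (circles) and of ndr1 and ndr2 (triangles), and right, the ratio of these sums, in each TBBPA and DMSO library of 3.5 and 4.5 hpf, with bars for the mean and SD of 4 libraries. The TBBPA libraries of 4.5 hpf lie at 5.67 to 8.10 FPKM of ndr1 and ndr2 with 5.14 to 8.22 FPKM of lft1 and lft2, while the DMSO libraries of 4.5 hpf lie at 6.57 to 8.42 FPKM of ndr1 and ndr2 with 29.0 to 34.9 FPKM of lft1 and lft2.

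TBBPA embryos of 4.5 hpf were also set against DMSO embryos of 3.5 hpf, the earlier control stage, in a comparison that shares libraries with those above. For tdgf1, smad2, foxh1, gdf3 and eomesa the log2 differences lay between -0.16 and 0.05 and did not pass the test. ndr1, ndr2 and mixl1 were higher and lft1 and lft2 lower by limma, 5 of the 10 genes, against 8.08% of all 11947 genes tested (3.55% higher and 4.53% lower). The log2 differences were 1.60 for ndr2 (SE 0.14, adjusted p = 8.61e-05), 0.69 for ndr1 (SE 0.17, adjusted p = 0.0352) and 0.68 for mixl1 (SE 0.11, adjusted p = 0.00417). ndr2 reached the filter here only through the TBBPA libraries, and its adjusted p was 0.00113 with no filter. For the inhibitors the log2 differences were -0.70 for lft1 (SE 0.14, adjusted p = 0.0126) and -0.68 for lft2 (SE 0.17, adjusted p = 0.0389).

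For the remaining 5 genes of that comparison the intervals were narrow. The 95% confidence intervals of the log2 difference were -0.09 to 0.13 for tdgf1, -0.05 to 0.14 for smad2, -0.12 to 0.02 for foxh1, -0.15 to -0.00140 for gdf3 and -0.27 to -0.06 for eomesa (limma adjusted p = 0.864, 0.558, 0.361, 0.206 and 0.0672 in that order). For eomesa all TBBPA libraries of 4.5 hpf were below all DMSO libraries of 3.5 hpf, and it passed without TBBPA replicate 1 (adjusted p = 0.0278). Without 1 other library its adjusted p reached up to 0.157. The ndr1 call was lost without DMSO replicate 1 (0.0735), 2 (0.0573) or 4 (0.0544) at 3.5 hpf and TBBPA replicate 1 (0.0743), 2 (0.0625) or 4 (0.0866) at 4.5 hpf. The lft2 call was lost without DMSO replicate 1 (0.0956), 2 (0.102) or 3 (0.0946) and TBBPA replicate 1 (0.0610), 2 (0.0664) or 4 (0.0660). Without DMSO replicate 1 or 2, 3 of the 10 genes passed. Without any of the TBBPA libraries ndr2 was below the filter, and of the 9 genes then tested 3 passed without TBBPA replicate 1 and 2 without TBBPA replicate 2 or 4. Over all genes, 593, 539 and 569 were called without DMSO replicates 1, 2 and 4, and 614 without TBBPA replicate 3, against 965 with all libraries. The highest count without 1 library was 837.

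The rest of the pathway was read from a list of 63 further genes, of which 60 matched the tables. acvr1c, smad4b and gdf1 were not analysed here. The list was chosen with earlier results of these data known, so its counts are a description and not an independent test. At 4.5 hpf, 44 of the 60 were tested by limma in TBBPA against DMSO. In TBBPA 33 were lower, 7 were higher and 4 did not pass. Over all genes 68.1% were called, 35.0% lower and 33.1% higher. The median log2 difference was -0.56 over these 44 genes. Of 18 tested transcriptional targets 16 were lower and 2 higher in TBBPA, and of 5 tested negative regulators 5 were lower. Of the 16, sebox reached the filter only through the DMSO libraries. The yolk syncytial and enveloping layer marker sums were also lower in TBBPA, as given above. mxtx1 and mxtx2 stand on both the upstream list and the yolk syncytial list.

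Among the targets, chrd, the dorsal BMP antagonist Chordin, stood furthest below DMSO (log2 difference -3.66, limma adjusted p = 2.12e-07). It had 3.14 ± 1.24 FPKM in TBBPA and 49.95 ± 8.75 FPKM in DMSO libraries (SD, n = 4 each). gata6, a mesendoderm factor, had 1.53 ± 0.744 FPKM in TBBPA and 16.5 ± 5.79 FPKM in DMSO libraries (log2 difference -2.79). noto, a notochord factor, had 15.0 ± 5.14 FPKM in TBBPA and 96.7 ± 13.99 FPKM in DMSO libraries (-2.66). tbxta, the zebrafish Brachyury, had 2.22 ± 0.686 FPKM in TBBPA and 17.8 ± 2.98 FPKM in DMSO libraries (-2.56). The 2 targets that were higher in TBBPA were the apelin receptor gene aplnrb, with a log2 difference of 1.98, and the homeobox gene lhx1a, with 0.50.

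Of the negative regulators, smad7, the inhibitory Smad, had 1.37 ± 0.265 FPKM in TBBPA and 7.81 ± 1.02 FPKM in DMSO libraries at 4.5 hpf (SD, n = 4 each; log2 difference -1.89, limma adjusted p = 3.31e-07). skilb, a Ski-like corepressor gene, had a log2 difference of -1.51, the corepressor gene tgif1 one of -0.90 and the phosphatase gene ppm1aa one of -0.31. The receptors split, with 4 lower and 2 higher of 6, beside 35.0% lower and 33.1% higher over all genes. acvr2aa, a type II activin receptor, had 14.3 ± 0.464 FPKM in TBBPA and 6.22 ± 0.206 FPKM in DMSO libraries (log2 difference 1.08), and acvr2ab had 0.29. acvr2bb had a log2 difference of -0.48 and the type I receptor acvr1bb one of -0.34. Of 5 proprotein convertases, a family with members that cut Nodal precursors, pcsk7 was higher (0.39) and pcsk6 lower (-0.32) in TBBPA. Of 9 upstream genes 7 were lower, among them mxtx1 (-1.49), ybx1 (-0.86) and pou5f3 (-0.77), while sox19b was higher (2.11). ybx1 encodes an RNA-binding protein that represses squint RNA. The mediator gene smad4a had -0.05 and did not pass, and none of 3 further ligands reached the filter.

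**Figure D5:**
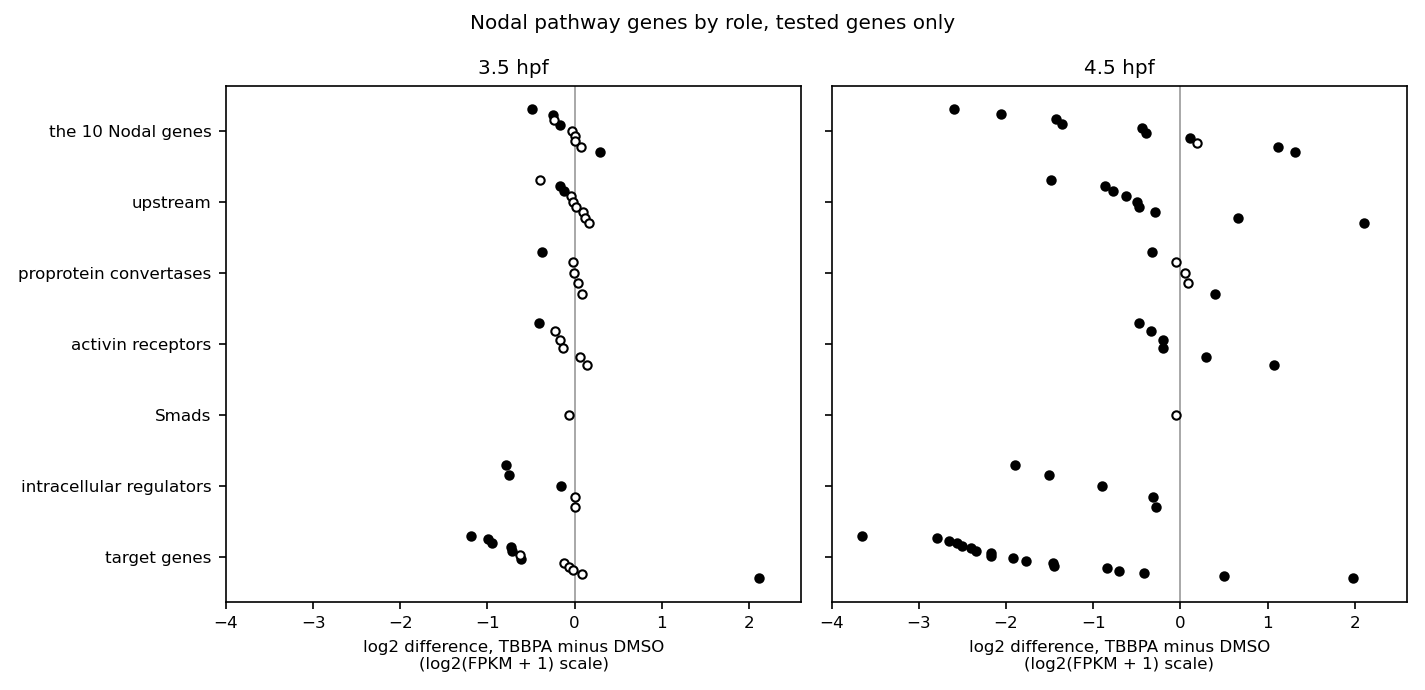
Log2 difference between TBBPA and DMSO at 3.5 hpf (left) and 4.5 hpf (right) on the log2(FPKM + 1) scale for the 10 Nodal pathway genes (top row) and the further pathway genes tested, by role, 1 point per gene, filled for limma adjusted p under 0.05. At 4.5 hpf the targets reach lowest, to -3.66 for chrd, while aplnrb at 1.98 and sox19b at 2.11 stand highest.

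At 3.5 hpf, 38 of the 60 further genes were tested by limma. In TBBPA 13 were lower, 1 was higher and 24 did not pass. Their median log2 difference was -0.09. Over all genes 12.0% were called, 5.34% lower and 6.67% higher. Of 12 tested targets 6 were lower and 1 was higher. chrd had 0.618 ± 0.168 FPKM in TBBPA and 2.68 ± 0.181 FPKM in DMSO libraries (SD, n = 4 each; log2 difference -1.19, limma adjusted p = 5.66e-05), cxcr4a a log2 difference of -0.999 and aplnra one of -0.95. aplnrb already stood higher, with 175 ± 24.5 FPKM in TBBPA and 39.5 ± 2.36 FPKM in DMSO libraries (log2 difference 2.11, limma adjusted p = 1.81e-06). Among 5 regulators 3 were lower: skilb (-0.79), smad7 (-0.75) and tgif1 (-0.15). Of the 13 lower genes, chrd, skilb and smad7 reached the filter only through the DMSO libraries, where they were higher. The filter thus favoured their direction. acvr2bb (-0.41) and pcsk6 (-0.38) were also lower in TBBPA, as were the maternal activators pou5f3 (-0.17) and nanog (-0.12). At 2 hpf 0 of 27 tested genes passed.

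Between 3.5 and 4.5 hpf, 19 of the further genes rose and 3 fell of 40 tested in TBBPA embryos. Over all genes 14.8% were called there, 6.15% higher and 8.60% lower. In DMSO embryos 31 rose and 6 fell of 44, beside 70.1% over all genes, 35.8% higher and 34.3% lower. Of those that rose, 4 in TBBPA and 5 in DMSO embryos reached the filter only through the 4.5 hpf libraries. The interaction passed for 35 of 45, with 29 lower and 6 higher, beside 52.8% of all genes, 26.6% lower and 26.3% higher. TBBPA embryos of 4.5 hpf had 10 higher and 2 lower of 40 relative to DMSO embryos of 3.5 hpf. Over all genes 8.08% were called there, 3.55% higher and 4.53% lower. Of the 10 higher genes 1, gata5, reached the filter only through the TBBPA libraries.

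Each of the 10 genes was also matched with the 3 named protein-coding genes of most similar course over the 16 libraries of 3.5 and 4.5 hpf, among 10186 candidates, by the root-mean-square (RMS) difference of centred log2(FPKM + 1) profiles. The RMS difference also follows how much a gene varies over the libraries, so it does not rank the matches between genes. gdf3 was nearest to kifc1, tatdn2 and dnajb11 (0.036 for kifc1), and foxh1 to nanog, kpnb3 and prps1a (0.042 for nanog). smad2 was nearest to katna1, snupn and gramd4b (0.052 for katna1), eomesa to rtkn2a, wipf2b and coil (0.058 for rtkn2a), and tdgf1 to ddx5, e2f8 and dyrk2 (0.068 for ddx5). mixl1 was nearest to fgf3, ccne2 and dynll1 (0.16 for fgf3), ndr2 to rgs12b, kazald2 and anxa1a (0.17 for rgs12b), and ndr1 to pkz, atp5mf and rab4a (0.19 for pkz). lft2 was nearest to hist1h2a11, klf11b and admp (0.21 for hist1h2a11) and lft1 to vox, tesca and cldnf (0.28 for vox). For lft1, vox, a ventral homeobox gene, had 17.4 FPKM in TBBPA and 80.8 FPKM in DMSO embryos at 4.5 hpf, and 18.9 FPKM in TBBPA and 17.9 FPKM in DMSO embryos at 3.5 hpf. These likenesses describe the same libraries and were not tested.

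The positions that the tables give, with no genome build named in the sources used here, place the 10 genes on 6 chromosomes. On chromosome 10 lie tdgf1 (1955475 to 1961930) and smad2 (14871136 to 14943281), both on the minus strand. Chromosome 12 holds foxh1 (13722385 to 13730501, minus strand) and ndr2 (48204891 to 48220619, plus strand). Chromosome 17 holds gdf3 (4239437 to 4252221) and lft2 (8308182 to 8312923), and chromosome 20 lft1 (35073981 to 35076387) and mixl1 (43715157 to 43723860), all 4 on the minus strand. eomesa is on chromosome 19 (860830 to 874888, minus strand) and ndr1 on chromosome 21 (21010786 to 21013085, plus strand). Beside the overlaps of ndr2 and mixl1 above, gdf3 overlaps CU929304.1 on the opposite strand and smad2 overlaps si:dkey-88l16.2 on the same strand, and both of those genes averaged below 0.1 FPKM in every group.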

How the data were processed

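RNA of 24 whole-embryo libraries was measured in 6 groups of 4. The deposited values are FPKM in 2 tables of 31901 genes, per the file headers, and the authors scaled each table separately: within a table the inverse step of a library was proportional to its median-of-ratios size factor. The submitters' processing notes name HISAT2 2.0.5 and featureCounts 1.5.0-p3. The build and annotation are not stated (not given in the sources used here). The library protocol names both stranded and unstranded preparation, so reads of overlapping genes are uncertain.

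FPKM times gene length gave whole multiples of 1 step for 100% of values within 0.001 of a step, taken as reads (10.6 to 20.02 M per library). Limits given for a count of 0 cover counting error only. Every value column was assigned through the labels' descriptions. The 36 replicate pairs differed by 2.54 to 14.7 times counting noise (chi-square per gene), and 0 were identical.

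The test was limma 3.58.1 in R 4.3.3 with a variance trend, on log2(FPKM + 1), 2-sided, with 1 FPKM in at least 4 libraries of the fit, Benjamini-Hochberg adjustment over all tested genes and a threshold of 0.05. It was tested on simulated data with few changed genes, all at 5 FPKM or more. That does not cover a comparison where most genes change, or weaker genes. The pseudocount of 1 understates changes of weakly expressed genes. Alternatives were other pseudocounts, filters and scalings, limma voom on the recovered reads, a replicate block, all libraries in 1 fit, and leaving out each library. All 10 genes are named, with up to 4 further pathway genes per role and time by size of change among those that passed, and 3 genes of nearest course per gene. Outside this rule, aplnrb and lhx1a at 4.5 hpf, gsc, apela and smad4a were named after their values were seen. Genes and lists were chosen with earlier results of these data known.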

Additional observations from a re-analysis of the deposited data

Results flagged for a closer look

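The treatment effect at 4.5 hpf minus that at 3.5 hpf passed limma's interaction test for 7 genes, with log2 values of -2.36 for lft1, -2.06 for mixl1, -1.12 for tdgf1, -0.93 for lft2, -0.27 for foxh1, 1.02 for smad2 and 1.05 for eomesa, beside 52.8% of all genes tested.

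In 6 of 58 groups of 4 libraries, 1 library lay far from the others of its group by Dixon's criterion, where chance gives about 1 in 20. In 4 of them, all at 2 hpf, a single library held the only reads of its group. Such a group meets the criterion at any count, so the rate of 1 in 20 does not apply to these 4. These were ndr1 in TBBPA replicate 3 (0.0447 FPKM, 1 read), ndr2 in TBBPA replicate 2 (0.0548 FPKM, 3 reads), ndr2 in DMSO replicate 2 (0.0392 FPKM, 2 reads) and lft2 in TBBPA replicate 2 (0.0543 FPKM, 1 read). At 3.5 hpf, lft1 in DMSO replicate 2 (2.91 FPKM, 63 reads) and lft2 in DMSO replicate 4 (6.06 FPKM, 118 reads) lay below the other DMSO libraries and within the range of the TBBPA libraries. The 2 low values are in different libraries.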

How the results depend on the processing

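Of 118 alternative counts of called genes, 110 stayed within 1.5 times the count reported, and of 1076 alternative log2 differences, 989 kept their direction and their side of the threshold. The other counts belong to 2 comparisons. For 4.5 against 3.5 hpf in TBBPA, 4 of the 7 genes then tested passed with a filter of 5 FPKM, against 7 of the 10. For TBBPA at 4.5 hpf against DMSO at 3.5 hpf, 3 passed with no filter and 2 with a filter of 5 FPKM, against 5. In both comparisons ndr1, ndr2 and lft1 lay below the filter of 5 FPKM and were not tested with it, which lowers these counts. Leaving out 1 library gave 3 to 4 genes at 3.5 hpf, 8 to 9 at 4.5 hpf and 7 to 8 for the interaction. Over time it gave 5 to 8 in TBBPA and 8 to 10 in DMSO. For TBBPA at 4.5 hpf against DMSO at 3.5 hpf it gave 2 to 4. In the tests over time and in this last comparison, leaving out any 4.5 hpf library put ndr2 below the filter. Only 9 genes were then tested, which lowers these counts in part.

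Reversed signs concerned differences near 0 that passed no test. At 2 hpf TPM scaling gave 0.0102 for gdf3, 0.0321 for tdgf1 and 0.0190 for eomesa. At 3.5 hpf voom gave 0.0299 for ndr1 and -0.00343 for gdf3, and median-of-ratios scaling -0.00233 for gdf3 and -0.00585 for mixl1. Without 1 library, values ran from -0.0987 to 0.0294 for gdf3, -0.0784 to 0.0189 for tdgf1 and -0.0251 to 0.0222 for foxh1 at 2 hpf. They ran from -0.191 to 0.0647 for ndr1, -0.0164 to 0.0305 for gdf3 and -0.0614 to 0.0534 for mixl1 at 3.5 hpf, and from -0.0304 to 0.0440 for tdgf1 in TBBPA at 4.5 hpf against DMSO at 3.5 hpf.

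TPM scaling moved the median log2 difference of all genes at 4.5 hpf from -0.02 to 0.13 and the DMSO change over time from 0.02 to -0.12. The replicate block gave 0, 4 and 9 called genes at 2, 3.5 and 4.5 hpf, 7 and 10 over time in TBBPA and DMSO, 8 for the interaction (ndr2 passed, adjusted p = 0.0167) and 6 for TBBPA at 4.5 hpf against DMSO at 3.5 hpf (eomesa passed, 0.0475). Libraries sharing a number had correlated deviations of -0.08 to 0.19, and 1 or 2 of 4 correlated best with their own number. Whether libraries of 1 number share an origin cannot be told from these weak correlations. The main test did not take the numbers as pairs. With no filter the calls of lft2 at 3.5 hpf (adjusted p = 0.0849), ndr2 at 4.5 hpf (0.0955), ndr1 over time in DMSO (0.0875), lft1 over time in TBBPA (0.0820), and ndr1 (0.0989) and lft2 (0.103) in TBBPA at 4.5 hpf against DMSO at 3.5 hpf were lost. Calls were also lost for ndr2 at 4.5 hpf with median-of-ratios scaling (0.0535), ndr1 over time in DMSO with TPM scaling (0.0915) and ndr1 in TBBPA at 4.5 hpf against DMSO at 3.5 hpf with a pseudocount of 0.1 (0.0507), while eomesa passed there with voom (0.0372). Losses with TPM scaling at 4.5 hpf and in the interaction, and other gains, stand beside their results. The cause was not tested.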

Other observations

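gsc and apela, from the list of targets, were listed at 0 in all 24 libraries, DMSO embryos of 4.5 hpf included. The listed targets chrd and noto reached 49.95 ± 8.75 and 96.7 ± 13.99 FPKM in those DMSO embryos (SD, n = 4 each). In the tables the spans of gsc and apela overlap no other gene. The cause was not tested.

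The 5 maternal genes gdf3, eomesa, tdgf1, smad2 and foxh1 made up 96.9% to 97.4% of the summed FPKM of the 10 genes in TBBPA libraries of 4.5 hpf, against 89.5% to 91.7% in DMSO libraries. At 3.5 hpf these shares were 97.9% to 98.2% in TBBPA libraries and 97.3% to 97.7% in DMSO libraries. tdgf1 and foxh1 rose after 3.5 hpf in DMSO embryos, so the shares do not measure maternal RNA.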
